A study of Mus musculus with 45 samples.

Results

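The Wnt ligands, their Frizzled receptors and the secreted proteins that modulate them were examined across the uterus and its layers in wild-type (WT) and Plag1 knockout (KO) mice. Members were taken by symbol, as every gene whose name begins with Wnt, Fzd, Sfrp, Dkk or Rspo followed by a digit, and 41 of the 24422 genes in the count table met this rule. They comprised 19 Wnt ligands, 10 Frizzled receptors, 4 secreted Frizzled-related proteins (Sfrp), 4 Dickkopf proteins (Dkk) and 4 R-spondins (Rspo).

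Wnt ligands are secreted lipid-modified glycoproteins that bind Frizzled receptors on neighbouring cells, either stabilising β-catenin or acting through β-catenin-independent routes. Sfrp proteins carry a Frizzled-like domain and can bind Wnts outside the cell, most Dkk proteins act on the Lrp co-receptors, and R-spondins raise Wnt responsiveness by protecting Frizzled receptors from the ubiquitin ligases Rnf43 and Znrf3. In the uterus this signalling is known for its part in the outgrowth of glands, the patterning of the reproductive tract and the response of the stroma to an embryo.

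The study asked whether loss of Plag1, a zinc finger transcription factor, alters the uterine transcriptome. Sexually mature CD-1 females, 7 WT and 7 KO, the latter carrying lacZ in place of the Plag1 open reading frame, all received 5 IU PMSG and, 2 days later, 5 IU hCG, and were killed on the following day. From each mouse came a piece of whole uterine horn (uterus), mucosa scraped from the horn (endometrium) and the muscle that remained (myometrium), so that every one of the 6 groups held 7 mice. RNA was counted by STRT, a method that tags the 5′ end of each transcript, and a gene's count therefore does not grow with its length.

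Total gene counts ranged from 256298 to 2431043 per mouse and tissue, so that 3 counts, taken here as the detection floor, corresponded to 1.23 to 11.7 CPM, the count normalised to each sample's gene total. Plag1 itself gave a single count in 2 of 21 WT samples and in 5 of 21 KO samples and none in the others, so it did not check the genotype labels, the more so since 5′ tags can come from outside the replaced part. All 4 epithelial markers (Cdh1, Epcam, Krt8, Krt18) were higher in endometrium than in myometrium and all 4 smooth muscle markers (Acta2, Cnn1, Des, Myh11) were lower, in each genotype. Of the 5 stromal fibroblast markers, 4 (Col1a1, Col3a1, Dcn, Lum) were also lower in endometrium. The summed smooth muscle markers ranged from 187 to 8082 CPM in endometrium and from 8099 to 25042 CPM in myometrium, and KO mouse 13 (8082 CPM) and WT mouse 3 (7359 CPM) had the most muscle-rich scrapings. In the endometrium of WT mouse 8, the oviduct marker Ovgp1 stood at 6120 CPM against a WT median of 72.1 CPM, and the summed mesothelial markers at 66.5 CPM against a median of 3.86 CPM. Each plate row held libraries of a single tissue, apart from 3 of the 45 libraries, all repeats, so tissue and plate row can hardly be told apart. The repeats of the endometrium of KO mouse 13 sat in rows D, E and F and gave 18.3, 32.6 and 29.2 CPM of Rspo3 and 80.8, 16.3 and 24.7 CPM of Fzd6. Those of the myometrium of WT mouse 12 sat in rows E and F and gave 281 and 167 CPM of Rspo3 and 15.1 and 28.1 CPM of Fzd6. In rows E and F, which these samples shared, Rspo3 was lower in the endometrium sample, while Fzd6 spread widely among libraries of the same sample. The samples come from different mice of different genotype, so these repeats cannot separate tissue from plate row. In bulk RNA, fewer cells of a type and less RNA per cell cannot be told apart either.

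Secreted modulators and receptors made up most of the family's counts, and ligands few. Averaged over the 42 mouse-by-tissue samples, the 4 Sfrp genes summed to 335 CPM, the 10 Fzd genes to 138 CPM, the 4 Rspo genes to 107 CPM, the 4 Dkk genes to 80.2 CPM and the 19 Wnt genes to 48.5 CPM. A mean of 10 CPM or more was reached by 11 members, namely Sfrp2 (167 CPM), Sfrp4 (152 CPM), Rspo3 (69.5 CPM), Fzd6 (55.0 CPM), Dkk3 (50.6 CPM), Fzd2 (47.7 CPM), Rspo1 (37.6 CPM), Dkk2 (29.5 CPM), Fzd1 (20.5 CPM), Wnt5a (19.7 CPM) and Sfrp1 (15.9 CPM). Wnt5a, a ligand that signals largely without β-catenin, was the only Wnt among them. No count in any sample was found for 6 members: Wnt1, Wnt3a, Wnt8a, Wnt9b, Rspo2 and Dkk4. Another 8 (Rspo4, Sfrp5, Wnt8b, Wnt10a, Wnt3, Wnt10b, Fzd9 and Dkk1) had 1 to 18 counts in all and entered no test, and the remaining 27 passed the filter on low counts (at least 1 CPM in at least 5 samples) in one fit or another. Wnt4, a ligand needed for decidualization, and Wnt7a, a ligand of the uterine epithelium, stood at medians of 8.16 and 1.44 CPM in endometrium. Per-gene levels are described in CPM without further scaling, and log2 fold changes are from edgeR's quasi-likelihood test with Benjamini-Hochberg adjustment over all genes tested.

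**Figure D1:**
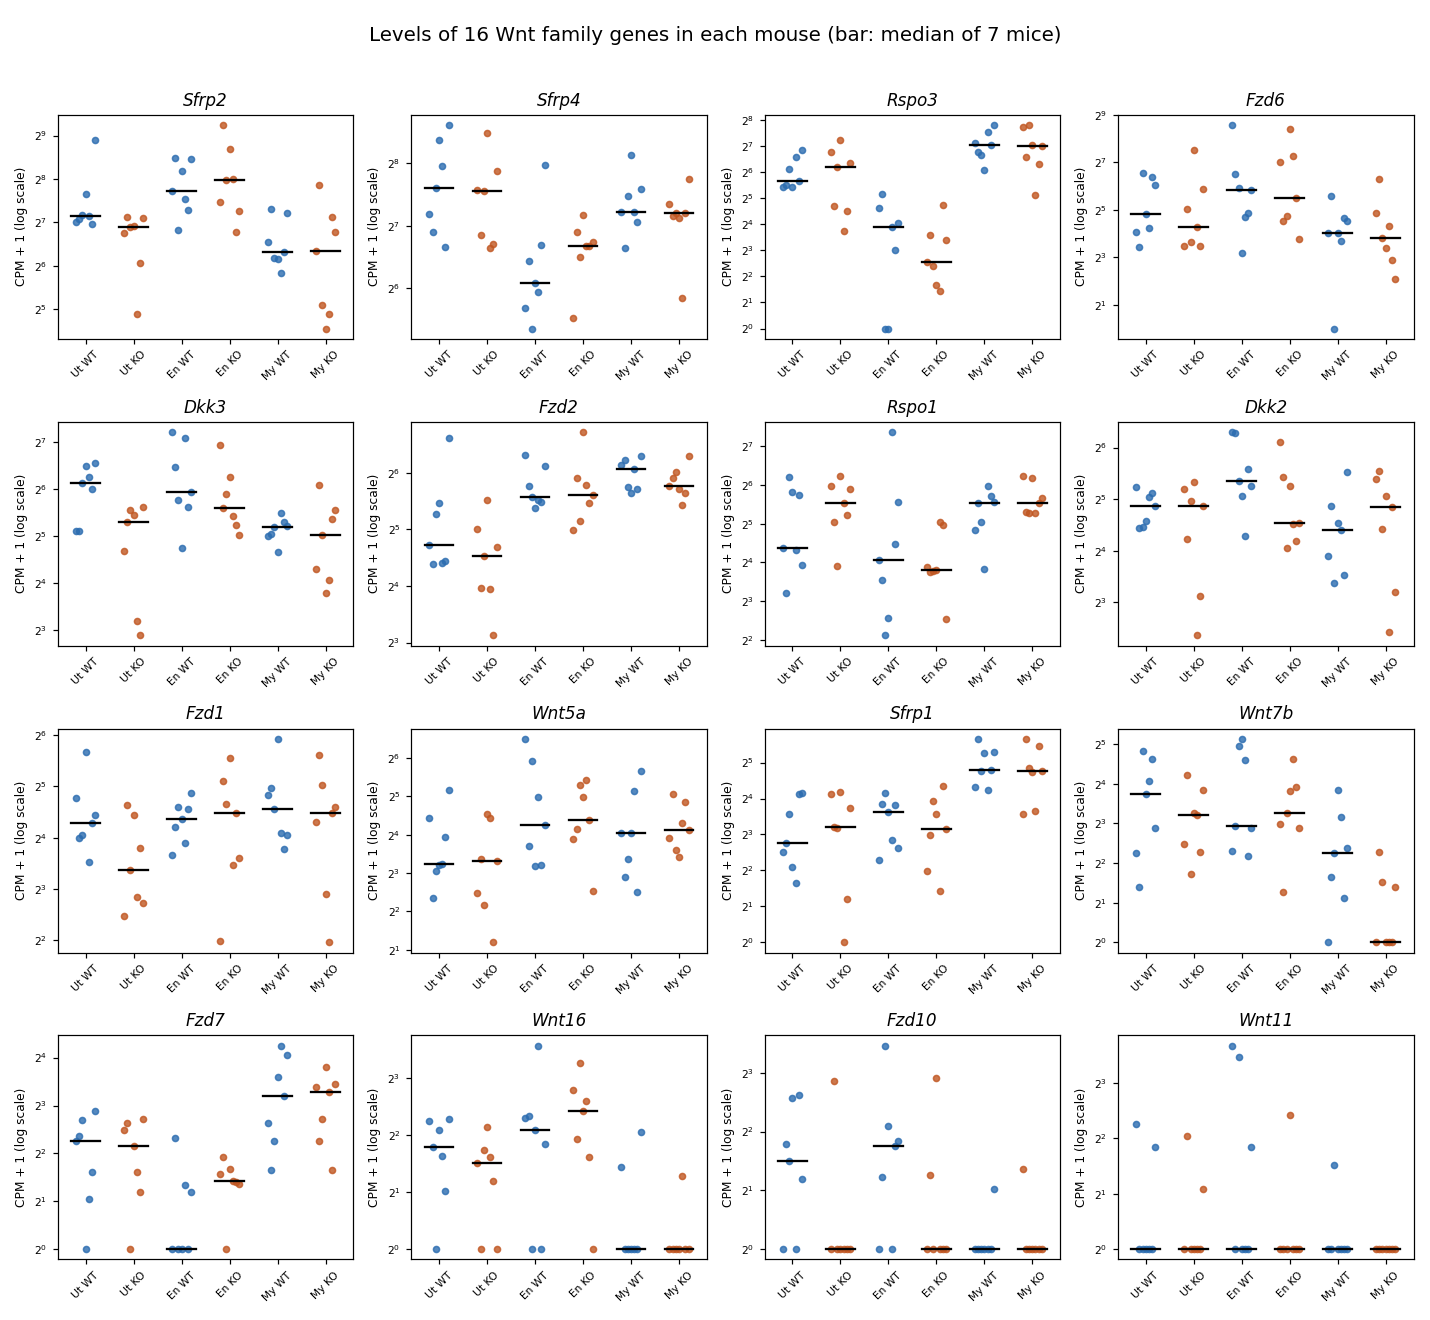
CPM + 1 (log scale) of 16 members in each mouse, by tissue (Ut, uterus; En, endometrium; My, myometrium) and genotype (WT blue, KO orange), with a bar at the median of 7 mice. Rspo3, Sfrp1 and Fzd7 lie lower in endometrium than in myometrium, and Sfrp2 lies higher there (median 232 CPM against 79.6 CPM in myometrium).

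The level of some members differed between the layers of the uterine wall, with ranges that overlapped over both genotypes. With both genotypes in the fit, an adjusted p under 0.05 for endometrium against myometrium was reached by 28.1% of all 14314 genes tested and by 11 of the 26 members tested (42.3%). Of these, 7 were higher in endometrium (Fzd6, Fzd10, Sfrp2, Dkk3, Wnt7b, Wnt11 and Wnt16) and 4 lower (Rspo3, Fzd7, Sfrp1 and Sfrp4), where 14.9% of all genes were higher and 13.3% lower, and the median log2 fold change over the tested members was 0.22 against 0.03 over all genes. Fzd10, Wnt11 and Wnt16 reached 1 CPM in 7, 4 and 11 endometrium samples but in 2, 1 and 3 myometrium samples, so they passed the filter mainly through the tissue in which they were high, and their calls are no support for a direction of the family. Of the 20 tested members with 5 or more such samples in both layers, 8 passed. The 28.1% covers all genes without this limit, so it is no background for that count. Without WT mice 3 and 8 and KO mouse 13, a set chosen after the values were seen, 12 members passed, 7 higher and 5 lower, Rspo1 being the addition. WT mouse 8 held the highest endometrial Rspo1, so its removal favours that call. No share of all genes is set beside this count, and it is a description. The filter acted likewise on Fzd7 in WT mice and on Wnt7b and Wnt16 in KO mice. In WT mice alone 6 of 25 members passed, 3 higher and 3 lower, where 13.2% of all genes did (6.81% higher, 6.39% lower). In KO mice 8 of 22 passed, 4 higher and 4 lower, where 19.3% of all genes did (10.6% higher, 8.71% lower). Scaling to the ERCC spike-ins moved the median of all genes from 0.03 to 0.39 and the split of all calls from 2130 higher and 1899 lower to 3407 and 960, and 14 members then passed, 11 higher and 3 lower. The corresponding splits of all genes were 901 and 845 against 953 and 464 in WT mice, and 1378 and 1130 against 2630 and 419 in KO mice. The members so scaled split into 5 higher and 3 lower in WT mice and 7 higher and 1 lower in KO mice, where Fzd7 (-1.50, adjusted p = 0.06374), Rspo1 (-0.94, adjusted p = 0.07127) and Sfrp1 (-0.96, adjusted p = 0.1311) lost their calls. With the main scaling, Rspo3, Fzd6, Fzd7, Sfrp1 and Sfrp2 passed in each genotype, Dkk3 in WT alone, and Rspo1, Wnt7b and Wnt16 in KO alone. The main fits treated the layers of a mouse as independent samples. When the mouse was a block, Dkk2 and Rspo1 also passed in the fit of both genotypes, and Fzd10 and Wnt11 did not.

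**Figure D2:**
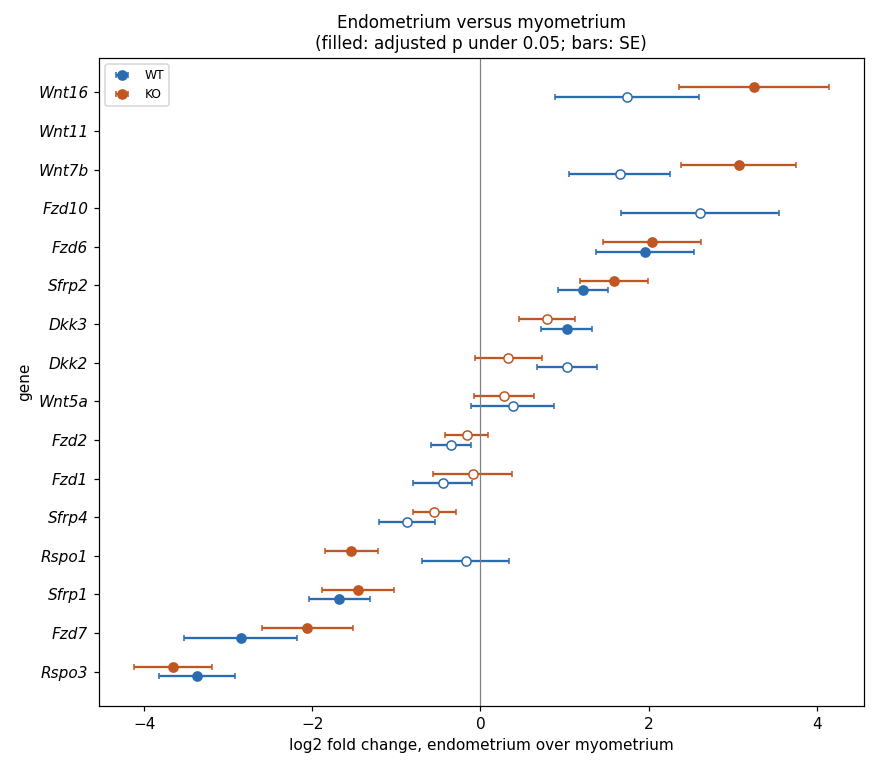
log2 fold change of endometrium over myometrium (horizontal axis) with its SE for each gene (vertical axis) in WT (blue) and KO (orange), filled where the adjusted p was under 0.05. Rspo3 stood furthest to the left in both genotypes, at -3.38 and -3.66, and Wnt11, and Fzd10 in KO, had too few counts for these fits.

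Among the R-spondins, Rspo3 (NCBIM37, the mm9 build, chr10:29172915-29255673, minus strand) showed the steepest difference of any member. Its level in WT endometrium ran from 0 through a median of 13.9 to 34.9 CPM and in WT myometrium from 66.4 through 129 to 222 CPM. In KO mice it was 1.69, 4.93 and 25.9 CPM in endometrium and 33.3, 128 and 222 CPM in myometrium. The layers overlapped only at the margin, with 13 of 14 endometrium samples below every myometrium sample, and myometrium was the higher in 14 of 14 mice. Rspo3 fell by 3.53 on the log2 scale in endometrium (SE 0.35, adjusted p = 4.904e-10), an 11.6-fold difference, with -3.71 among mice whose libraries sat in plate rows A to C and -3.23 in rows D to F. The endometrium samples with the most smooth muscle marker RNA, those of WT mouse 3 and KO mouse 13, were also the highest of their genotype for Rspo3, and the part of the muscle RNA in the Rspo3 level was not tested. Leaving out those mice and WT mouse 8, a set chosen after the values were seen, the difference was -4.31. Since mice 3 and 13 held the highest endometrial Rspo3, their removal works toward a larger difference, and no conclusion is drawn from it.

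**Figure D3:**
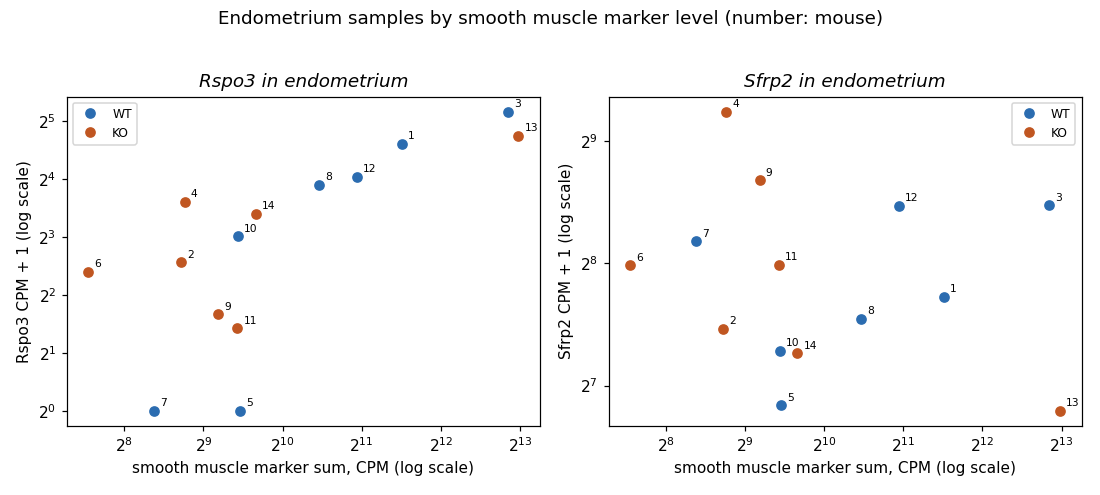
Rspo3 (left) and Sfrp2 (right) in the 14 endometrium samples, as CPM + 1 on a log axis, against the sum of 4 smooth muscle markers in CPM on a log axis, each point a mouse with its number. Rspo3 was highest, at 34.9 and 25.9 CPM, in mice 3 and 13, whose marker sums were 7359 and 8082 CPM. It was listed at 0 in mice 5 and 7, at 703 and 333 CPM, where the floor of 3 counts was 10.0 and 4.87 CPM. The lowest marker sum, 187 CPM in mouse 6, came with 4.28 CPM of Rspo3.

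Rspo1 (chr4:124663674-124686343, plus strand, overlapped on the other strand by Gm12930), the second R-spondin above 10 CPM, also lay lower in the endometrium of most mice. In KO mice its levels were 4.77, 13.1 and 32.1 CPM (lowest, median, highest) in endometrium and 37.3, 44.8 and 73.7 CPM in myometrium, with no overlap between the layers. The KO difference was -1.54 (SE 0.31, adjusted p = 0.001082), in 7 of 7 mice, and -0.94 when scaled to spike-ins (adjusted p = 0.07127). In WT mice Rspo1 was at 3.33, 15.6 and 164 CPM in endometrium and 13.3, 45.3 and 62.0 CPM in myometrium, and the value of 164 CPM belonged to mouse 8, whose scraping carried the Ovgp1 and mesothelial RNA described above. The WT difference was -0.18 (SE 0.52, adjusted p = 0.8826) with this mouse and -1.06 (adjusted p = 0.1573) without it. Over both genotypes it was -0.85 (SE 0.35, adjusted p = 0.06581), and it passed with the mouse as a block (-1.24, adjusted p = 3.067e-05), without WT mouse 8 (-1.31, adjusted p = 0.0004766) and with all 6 groups in a single fit (-0.86, adjusted p = 0.04768). The part of the oviduct and mesothelial RNA in the value of mouse 8 was not tested.

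**Figure D4:**
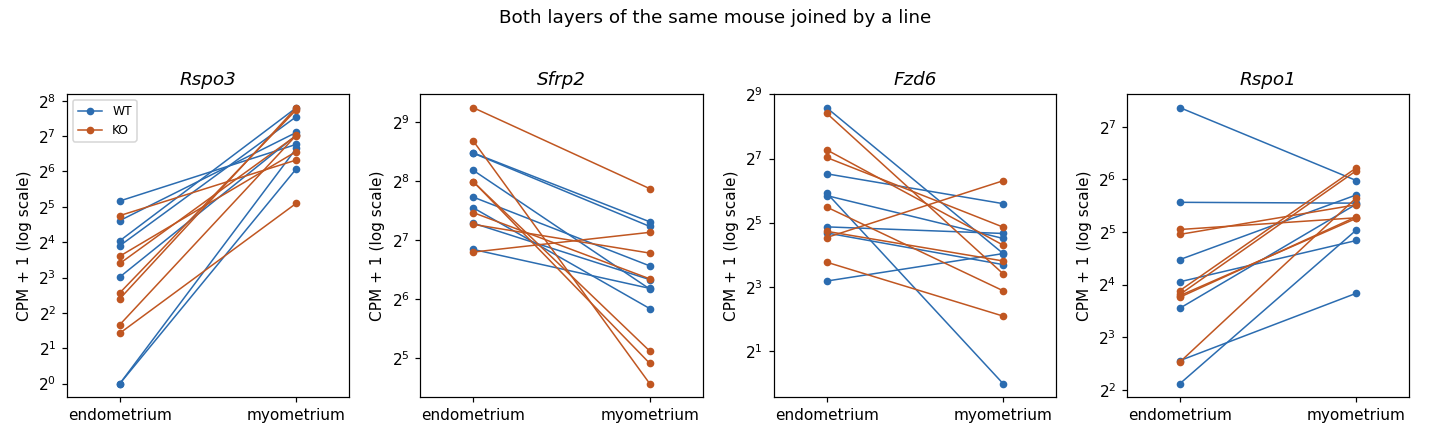
CPM + 1 (log scale) of Rspo3, Sfrp2, Fzd6 and Rspo1 in endometrium and myometrium, with a line joining the layers of each mouse (WT blue, KO orange). Every line of Rspo3 climbs toward myometrium, 13 of 14 lines of Sfrp2 drop, and for Rspo1 the WT line starting at 164 CPM drops, with 12 of 14 lines climbing.

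Of the receptors, Fzd7 was lower and Fzd6 and Fzd10 higher in endometrium. Fzd7 (chr1:59538991-59543791, plus strand), a receptor linked to β-catenin signalling, gave 5 counts over all 7 WT endometrium samples and 11 over the KO ones, against 42 and 28 in myometrium. It was lower in endometrium in 13 of 14 mice, by -2.42 (SE 0.42, adjusted p = 1.816e-05), a 5.36-fold difference, with -2.17 in rows A to C and -2.69 in rows D to F. Fzd6 (chr15:38837879-38869732, plus strand), a receptor best known for planar cell polarity, spread widely between mice. Its endometrial levels ran from 8.12 through 56.6 to 382 CPM in WT and from 12.7 through 44.0 to 339 CPM in KO, and its myometrial levels from 0 through 15.5 to 47.4 CPM and from 3.29 through 13.1 to 78.3 CPM. The layers overlapped, and endometrium was the higher in 12 of 14 mice, by 1.98 (SE 0.45, adjusted p = 0.0007267), a 3.95-fold difference.

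The highest Fzd6 levels, 382 CPM in WT mouse 1 and 339 CPM in KO mouse 9, came from the least deeply counted endometrium sample of each genotype, at 256298 and 459533 total counts, with 98 and 156 counts of the gene. The part of depth in these levels was not tested. Without WT mouse 1 the WT difference was 1.08 (adjusted p = 0.2078), and without KO mouse 9 the KO difference was 1.32 (adjusted p = 0.115). The WT call was also lost with DESeq2 (2.06, adjusted p = 0.05721) and with all 6 groups in a single fit (1.95, adjusted p = 0.0503). Fzd6 differed by 1.62 in rows A to C and 2.52 in rows D to F. Fzd10 had 14 counts in endometrium, in 7 of 14 mice, and 2 in myometrium. Its difference of 2.02 (SE 0.74, adjusted p = 0.03635) no longer passed with the mouse as a block (adjusted p = 0.1069), with DESeq2 (adjusted p = 0.1771), with all 6 groups in a single fit (1.90, adjusted p = 0.1), or without any one of WT mice 5, 7 and 10 and KO mice 4 and 9 (adjusted p from 0.05862 to 0.09355). Fzd2, Fzd1 and Fzd3 did not pass, at -0.27, -0.28 and -0.71 (adjusted p = 0.2179, 0.5356 and 0.2088).

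The Frizzled-related proteins went in opposite directions. Sfrp2 (chr3:83570243-83578238, plus strand, overlapped on the other strand by Gm16790) was at 113, 211 and 355 CPM in WT endometrium against 56.0, 79.2 and 157 CPM in WT myometrium, and at 110, 252 and 605 CPM in KO endometrium against 22.6, 79.9 and 233 CPM in KO myometrium. The ranges overlapped, with 7 of 14 endometrium samples above every myometrium sample. Sfrp2 was higher in endometrium in 13 of 14 mice, by 1.39 (SE 0.26, adjusted p = 7.987e-05), a 2.62-fold difference, and by 1.39 within each set of plate rows. Its exception was KO mouse 13, whose endometrium had the lowest Sfrp2 of the KO samples (110 CPM) and the most muscle RNA. The next most muscle-rich scraping, that of WT mouse 3, had the highest Sfrp2 of the WT endometrium samples (355 CPM). The part of muscle RNA in the Sfrp2 level was not tested.

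Sfrp1 (chr8:24521974-24560104, plus strand) did the reverse. It stood at 3.90, 11.4 and 16.7 CPM in WT endometrium and 18.0, 26.8 and 49.6 CPM in WT myometrium, with no overlap, and at 1.69, 7.94 and 19.3 CPM against 11.0, 26.3 and 49.6 CPM in KO mice. It was lower in endometrium in 14 of 14 mice, by -1.57 (SE 0.28, adjusted p = 3.609e-05), with -1.72 and -1.41 in the plate rows. The KO difference of -1.46 (adjusted p = 0.01834) was -1.27 without mouse 4 (adjusted p = 0.0795) and -0.96 when scaled to spike-ins (adjusted p = 0.1311). Sfrp4 (chr13:19714973-19724863, plus strand) was lower in endometrium by -0.73 (SE 0.22, adjusted p = 0.01113), in 11 of 14 mice. That difference was -1.30 in rows A to C and -0.19 in rows D to F. In WT mice the difference was -0.87 (adjusted p = 0.08553), and it passed with the mouse as a block (-1.09, adjusted p = 0.00151), with plate rows as a covariate (-1.08, adjusted p = 0.02323) and without mouse 12 (-1.34, adjusted p = 0.00537). When counts were scaled to the ERCC spike-ins, the difference over both genotypes was -0.32 (adjusted p = 0.389).

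Dkk3 (chr7:119259533-119302571, minus strand), a divergent Dickkopf protein, was at 26.0, 60.5 and 148 CPM in WT endometrium and 24.3, 35.7 and 44.0 CPM in WT myometrium, higher in endometrium in 7 of 7 WT mice. In KO mice it was at 31.8, 47.4 and 121 CPM against 12.9, 31.7 and 66.8 CPM, higher in 4 of 7. The difference over both genotypes was 0.90 (SE 0.23, adjusted p = 0.002654), with 1.11 in rows A to C and 0.55 in rows D to F. The KO difference was 0.80 (adjusted p = 0.1001), or 0.77 with the mouse as a block (adjusted p = 0.0453), and the WT call was lost without mouse 1, 3, 8 or 12 (0.89 to 1.05, adjusted p from 0.05058 to 0.08332). Dkk2 was higher in endometrium by 0.67 (adjusted p = 0.07068), and by 0.68 with the mouse as a block (adjusted p = 0.02234). Dkk1, a classical inhibitor of Lrp co-receptors, had 1 count in the whole series.

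Of the ligands, Wnt7b (chr15:85365869-85412251, minus strand, overlapped on the other strand by AU022754), an epithelial Wnt in several organs, was at 3.54, 6.70 and 34.1 CPM in WT endometrium against 0, 3.75 and 13.3 CPM in myometrium. In KO mice it was at 1.39, 8.56 and 23.6 CPM against 0, 0 and 3.82 CPM. It was higher in endometrium in 13 of 14 mice, by 2.15 (SE 0.47, adjusted p = 0.0004338), and by 1.69 and 2.63 in the plate rows. In WT mice the difference was 1.66 (adjusted p = 0.07018), or 1.52 with the mouse as a block (adjusted p = 0.04054). Wnt16 (chr6:22238227-22250409, plus strand) gave 39 counts in endometrium and 5 in myometrium, and 8 of 14 endometrium samples exceeded every myometrium sample. Its difference of 2.34 (SE 0.60, adjusted p = 0.002868) was 3.51 in rows A to C and 1.03 in rows D to F. Wnt11 gave 10 counts in endometrium, in 4 mice, and 1 in myometrium, and its difference of 2.22 (SE 0.83, adjusted p = 0.04005) no longer passed with the mouse as a block (adjusted p = 0.07935), with DESeq2 (adjusted p = 0.6021) or with all 6 groups in a single fit (2.08, adjusted p = 0.1319). Wnt5a did not pass, at 0.31 (SE 0.32, adjusted p = 0.514), nor did Wnt4 (0.64, adjusted p = 0.1824) or Wnt7a (1.53, adjusted p = 0.08635).

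Promoters are given next of 2 members higher in endometrium (Sfrp2, Wnt16), 1 lower there (Fzd7) and 1 lower there in KO mice (Rspo1). The positions of the 5′ tags were not examined. These promoters are RefSeq sequences of build GRCm38.p6, from 250 bases before to 50 after the annotated start site. Each is written 5′ to 3′ on the gene's strand, here the plus strand. Capitals mark matches on either strand to TATAAA, to GGGCGG, to the PLAG1 consensus, or to a TCF/LEF word. The TCF/LEF words searched were CTTTGAA and its relatives, namely CTTTGAT as well as the word CTTTGTA and lastly the word CTTTGTT. The intervals are chr3:83766071-83766370 (Sfrp2), chr6:22287977-22288276 (Wnt16), chr1:59481897-59482196 (Fzd7) and chr4:124986180-124986479 (Rspo1).
Sfrp2: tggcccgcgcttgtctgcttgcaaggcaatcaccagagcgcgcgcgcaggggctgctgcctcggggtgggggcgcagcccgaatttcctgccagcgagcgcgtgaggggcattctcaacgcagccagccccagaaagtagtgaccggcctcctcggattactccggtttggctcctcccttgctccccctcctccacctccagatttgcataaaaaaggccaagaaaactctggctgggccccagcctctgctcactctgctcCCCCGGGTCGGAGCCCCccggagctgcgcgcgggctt
Wnt16: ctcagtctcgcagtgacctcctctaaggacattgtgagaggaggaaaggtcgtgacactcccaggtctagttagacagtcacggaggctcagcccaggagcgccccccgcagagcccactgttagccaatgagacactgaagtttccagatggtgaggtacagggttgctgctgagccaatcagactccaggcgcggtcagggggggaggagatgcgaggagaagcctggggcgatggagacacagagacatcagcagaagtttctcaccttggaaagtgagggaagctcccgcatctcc
Fzd7: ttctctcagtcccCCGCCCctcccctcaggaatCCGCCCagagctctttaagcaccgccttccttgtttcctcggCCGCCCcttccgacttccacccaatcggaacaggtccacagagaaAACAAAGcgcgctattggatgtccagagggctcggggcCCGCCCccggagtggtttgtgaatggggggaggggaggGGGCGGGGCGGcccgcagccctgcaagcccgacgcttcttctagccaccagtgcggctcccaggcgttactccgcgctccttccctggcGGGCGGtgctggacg
Rspo1: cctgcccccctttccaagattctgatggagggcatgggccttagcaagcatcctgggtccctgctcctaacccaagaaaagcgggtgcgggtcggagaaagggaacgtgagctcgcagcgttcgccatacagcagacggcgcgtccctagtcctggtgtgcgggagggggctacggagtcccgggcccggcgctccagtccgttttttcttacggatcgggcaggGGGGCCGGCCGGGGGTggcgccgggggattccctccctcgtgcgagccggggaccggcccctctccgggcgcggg
In these windows, Fzd7 held a TCF/LEF word, AACAAAG on the given strand, and 7 GGGCGG matches, of which a pair overlap each other. Rspo1 and Sfrp2 each held a single PLAG1 consensus match, and Wnt16 held none of the motifs. Promoters were found for 27 of the 41 members, 30 windows in all. Of these windows, 13 (43.3%) held the PLAG1 consensus, against 19.2% of all 32851 promoters, and 22 (73.3%) held GGGCGG, against 35.7%. TCF/LEF words were in 16.7% against 16.9% and TATAAA in 13.3% against 13.6%. The member windows were richer in G and C, at a median of 69.8% against 52.7%, and the PLAG1 consensus and GGGCGG share G-rich letters and overlap in places. These are letter matches only, and the part of base composition in the shares was not tested.

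Other genes of the pathway were taken from 8 lists holding 52 genes, of which 46 were tested between the layers in the fit of both genotypes and 15 passed, 9 higher and 6 lower in endometrium. Of the 2 tested genes for Wnt secretion, Porcn, which lipidates Wnts, and Wls, which carries them to the cell surface, both were higher in endometrium, Wls by 0.89 (SE 0.20, adjusted p = 0.0008028). None of the 6 co-receptors and alternative receptors and none of the 4 tested R-spondin receptors and ligases passed. Frzb, a further Frizzled-related antagonist that the naming rule did not take, was lower by -1.37 (SE 0.24, adjusted p = 2.462e-05), 1 of 2 lower among 4 antagonists. Csnk1a1, a kinase of the β-catenin destruction complex, was lower by -1.05 (SE 0.19, adjusted p = 3.921e-05), and of 10 transducers 1 was higher (Ctnnb1, β-catenin) and 2 lower.

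Of the 8 nuclear effectors, 3 were higher and none lower, among them Lef1, a partner of β-catenin, by 1.97 (SE 0.41, adjusted p = 0.0003003) and Bcl9, a co-activator, by 1.54 (SE 0.38, adjusted p = 0.002076). Of 6 feedback and target genes, 1 was higher and 2 lower, Nkd1, a feedback inhibitor, by -1.90 (SE 0.40, adjusted p = 0.0003409). Of the 6 tested planar polarity genes, Celsr1 and Celsr2, atypical cadherins, were higher, by 2.39 (SE 0.41, adjusted p = 1.7e-05) and 2.06 (SE 0.39, adjusted p = 7.474e-05). Beside the background of 28.1%, these counts are descriptions.

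The whole horn was compared with each layer in a pair of fits added after the values were seen. Against endometrium, 8.89% of 14194 genes differed (5.35% higher in the horn, 3.54% lower) and 2 of 27 members did: Rspo3 was higher in the horn by 2.68 (SE 0.39, adjusted p = 2.018e-05) and Sfrp4 by 1.23 (SE 0.25, adjusted p = 0.001077). With the mouse as a block 6 members passed, adding Rspo1 (1.15, adjusted p = 0.02003) as higher. Fzd2 (-0.72, adjusted p = 0.01631), Sfrp2 (-0.60, adjusted p = 0.02891) and Wnt5a (-0.90, adjusted p = 0.03987) were added as lower. The 8.89% belongs to the fit without the block. No share of all genes is set beside the count with the block, which is a description. Against myometrium, 27.7% of 14243 genes differed (15.7% higher in the horn, 12.1% lower) and 10 of 27 members did, 6 of them higher in the horn (Fzd6, Fzd10, Sfrp2, Sfrp4, Wnt7b, Wnt16) and 4 lower (Fzd2, Fzd7, Rspo3, Sfrp1). Scaled to spike-ins, the split of all genes went from 760 higher and 502 lower to 785 and 81 against endometrium, and from 2234 and 1718 to 5184 and 402 against myometrium, where 10 members were then higher and 1 lower. So scaled, Rspo3 (-0.24, adjusted p = 0.5248) and Fzd7 (-0.56, adjusted p = 0.2731) lost their calls against myometrium. Those of Fzd6 (1.17, adjusted p = 0.05274) and Wnt16 (1.68, adjusted p = 0.07589) were lost with DESeq2 and that of Fzd6 with all 6 groups in a single fit (1.19, adjusted p = 0.05912). Fzd10 and Wnt16 entered this comparison mainly through the horn.

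Sfrp4 was at 101, 194 and 391 CPM in the WT horn and at 98.8, 188 and 357 CPM in the KO horn. Its median over all 14 horns, 189 CPM, exceeded those of endometrium (95.6 CPM) and of myometrium (148 CPM), and the horn was higher than myometrium by 0.53 (SE 0.19, adjusted p = 0.03386). That call was lost with relative log expression factors (0.46, adjusted p = 0.07134), with DESeq2 (0.46, adjusted p = 0.07661) and with all 6 groups in a single fit (0.52, adjusted p = 0.08517). Fzd2 lay below both layers, at a median of 23.3 CPM against 47.2 and 56.2 CPM, and differed from myometrium by -0.86 (SE 0.21, adjusted p = 0.001691), or by -0.27 when scaled to spike-ins (adjusted p = 0.3962). Sfrp1, Fzd1 and Wnt5a also had horn medians below both layers. Over the 6697 genes of at least 10 CPM, 39.5% had horn medians below both layers and 16.3% above both, where 4 and 1 of the 11 members did, so these positions were not particular to the members.

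KO and WT mice were compared in each tissue, to ask whether Plag1 loss changes the family's levels. No gene passed at an adjusted p under 0.05 by edgeR in uterus (0% of 12959 genes), endometrium (0% of 13004) or myometrium (0% of 12991), and so none of the 24, 24 and 21 members tested did. At an unadjusted p under 0.05, 731, 676 and 548 genes passed (5.64%, 5.2% and 4.22%), and 2, 0 and 1 members. DESeq2 called 0, 1 and 0 genes, none of them a member. In simulated data of the same size, 13.3% of genes changed 2-fold and 72.6% of those changed 4-fold were recovered in uterus. The shares were 14.3% and 72.5% in endometrium and 33% and 82.5% in myometrium, so that a 2-fold change was mostly not detectable. Changed genes were drawn only from those with a mean of at least 5 CPM in the samples compared. Recovery was thus not tested at levels such as the means of Fzd7, Wnt16 and Fzd10 (4.29, 2.07 and 1.24 CPM). The shares are therefore not taken to hold for them.

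Among the members, the smallest p in the uterus was that of Dkk3, which ranked 172 among all genes. Its levels were 33.8, 69.5 and 93.9 CPM in WT and 6.43, 38.4 and 48.2 CPM in KO, and 7 of 7 KO values lay below the WT median, while the groups overlapped between 33.8 and 48.2 CPM. The difference was -1.0 (SE 0.35, adjusted p = 0.659), being -0.58 in plate rows A to C and -1.57 in rows D to F. Rows A to C held 5 WT and 3 KO mice, and rows D to F held 2 WT mice (10 and 12) and 4 KO mice. Each genotype difference or interaction given for rows D to F therefore rests on 2 WT mice. Sfrp2 differed by -0.82 in the uterus (SE 0.33, adjusted p = 0.7893), by -0.19 and -1.73 in the plate rows, and by -0.42 without WT mouse 12, whose Sfrp2 level of 474 CPM lay apart from the other WT horns (124 to 202 CPM). Rspo1 had the smallest p of a member in endometrium (rank 1183), at -1.03 (SE 0.58, adjusted p = 0.9589), and the difference was 0.0012 without WT mouse 8. Wnt7b had the smallest p of a member in myometrium (rank 363), at -1.82 (SE 0.82, adjusted p = 0.9999), with 18 counts in WT and 4 in KO.

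**Figure D5:**
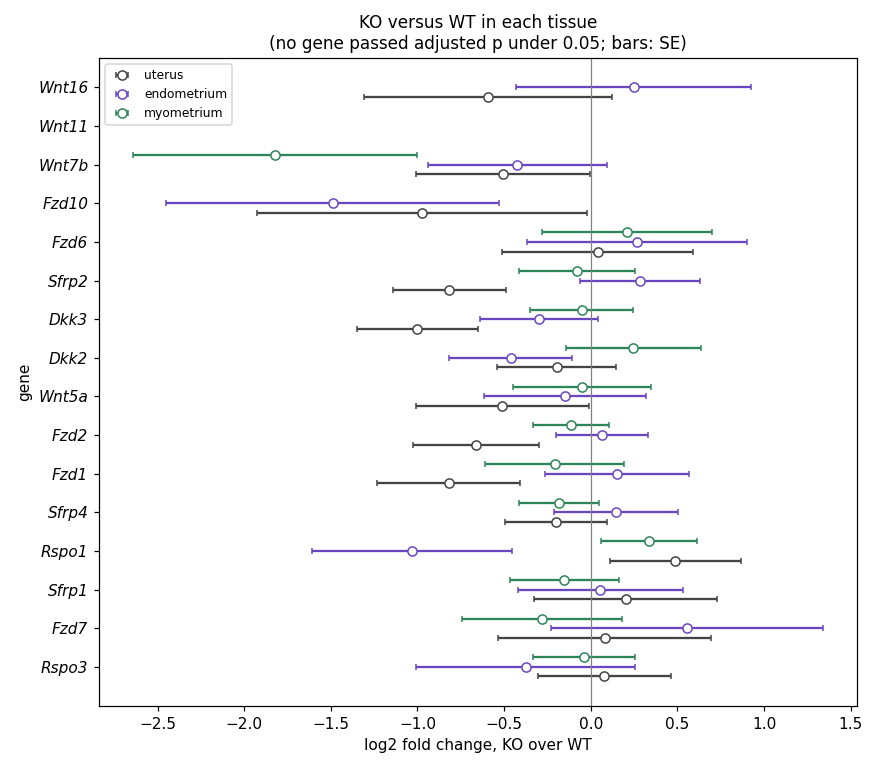
log2 fold change of KO over WT (horizontal axis) with its SE for each gene (vertical axis) in uterus (grey), endometrium (purple) and myometrium (green). No value passed an adjusted p under 0.05, the furthest from 0 was Wnt7b in myometrium at -1.82, and genes too low for a fit have no point.

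In myometrium, the 3 members of highest mean level had similar medians in both genotypes. There Rspo3 had medians of 129 CPM in WT and 128 CPM in KO and a difference of -0.04 (SE 0.29), Sfrp2 medians of 79.2 and 79.9 CPM and a difference of -0.08 (SE 0.33), and Sfrp4 medians of 148 and 147 CPM and a difference of -0.18 (SE 0.23). Rspo3 in myometrium was 0.56 in rows A to C and -0.80 in rows D to F, and Sfrp2 was 0.25 and -0.47, so both pooled values lay between opposite ones.

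Whether the layer difference itself depended on genotype was tested as an interaction of KO by layer. By edgeR, 0 of 14314 genes passed (0%), with 658 (4.6%) at an unadjusted p under 0.05, and 0 of 26 members did, with 1 unadjusted. Rspo1 had the smallest p among members, at -1.36 (SE 0.67, adjusted p = 0.9933), and was -0.47 without WT mouse 8. Wnt7b and Wnt16, whose layer calls were made in KO mice, had interactions of 1.41 (SE 0.99, adjusted p = 0.9933) and 1.46 (SE 1.25, adjusted p = 0.9933), so a difference between the genotypes was not shown for them. The Wnt7b interaction was -0.11 in rows A to C and 3.51 in rows D to F. In simulated data with changed genes drawn as above, the interaction test recovered 5.21% of genes changed 2-fold and 42.3% of those changed 4-fold. A missing interaction call therefore says little. With the mouse as a block 10 genes passed, none of them a member.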

How the data were processed

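The authors joined reads sharing a unique molecular identifier, aligned them with TopHat to mm9 and counted 5′ tags per gene with Homer over UCSC gene models, as their methods state, while the submitters' processing notes name HTSeq. The deposited values are raw counts per gene. Use of strand and of multiply mapped reads is not given in the sources used here, so reads of overlapping genes on opposite strands (Sfrp2, Rspo1, Wnt7b, Wnt11, Wnt5a and Wnt5b have such a partner) cannot be told apart.

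Here 45 libraries were summed into 42 mouse-by-tissue samples (3 repeat libraries of KO mouse 13 endometrium, 2 of WT mouse 12 myometrium). The 92 spike-in rows, 0.804 to 2.952% of counts, were left out of library sizes. CPM are counts scaled by the gene total of the sample, and 3 counts were the floor, which covers counting error only. A gene entered a fit if 5 or more of its samples reached 1 CPM, and testing used edgeR 4.0.16 (TMM factors, quasi-likelihood F test, Benjamini-Hochberg adjusted p under 0.05), and DESeq2 1.42.0 was an alternative, in R 4.3.3. The fits were tested on simulated data. SE is the absolute log2 fold change over the square root of F.

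Layers came from the same mice, and so did the horn, but the main fits had no term for the mouse. They treated these samples as independent. Deviations from group means over 14822 genes correlated between layers of the same mouse at a mean of 0.0984 in WT and 0.1445 in KO, and between mice at -0.0165 and -0.0241. Alternatives were the mouse as a block, other scalings and filters, a single library per mouse, plate rows as a covariate and leaving out each mouse. The comparisons of whole horn with layers and the fit without 3 mice were chosen after seeing the data. Members and lists were chosen with earlier results of these data known. Genes named with values were the members with a mean of at least 10 CPM and those called in a planned comparison, 16 in all, and a few others (Wnt4, Wnt7a, Fzd3 and Dkk1 among them) were named after their values were seen.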

Additional observations from a re-analysis of the deposited data

Results flagged for a closer look

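A single mouse stood apart from the other 6 of its group, by Dixon's gap ratio above 0.568, in 11 of 95 groups of values (11.6%). In 6 of the 11 the other mice were all at 0, which fixes the ratio, and the chance rate of about 1 in 20 holds for normal values, so the share of flags is not compared with it. Sfrp2 in the WT uterus was 474 CPM in mouse 12 against 124 to 202 CPM in the others. Sfrp4 was lowest at 45.3 CPM in the endometrium of KO mouse 2, against 89.8 to 144 CPM, and at 56.4 CPM in the myometrium of KO mouse 11, against 139 to 215 CPM. Fzd6 was 0 in the myometrium of WT mouse 5, against 12.0 to 47.4 CPM, and Fzd7 was 0 in the endometrium of KO mouse 6, against 1.59 to 2.79 CPM.

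The other 6 were groups in which all but 1 mouse were at 0. Fzd10 was 6.23 CPM in the uterus of KO mouse 4, 1.04 CPM in the myometrium of WT mouse 12 and 1.57 CPM in that of KO mouse 2. Wnt11 was 4.35 CPM in the endometrium of KO mouse 9 and 1.88 CPM in the myometrium of WT mouse 5, and Wnt16 was 1.45 CPM in the myometrium of KO mouse 11. No effect of a member was found to differ between genotypes by the interaction test, whose recovery in simulated data was low.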

How the results depend on the processing

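Of 617 values of called results under the alternatives, 583 kept their call, 34 lost it and none changed sign. The threshold of 0.1, counted among them, read the main fit again and so kept every call by construction. Members that a setting left without an adjusted p were not counted as lost. The share kept is therefore no measure of robustness. KO against WT gave 1 gene with DESeq2 and 7 with all 6 groups in a single fit in endometrium, and 1 with spike-in scaling and 3 with no filter in myometrium, and 0 to 1 genes in uterus, 0 in endometrium and 0 to 1 in myometrium when a mouse was left out. The interaction gave 10 genes in the replicate block fit and 0 with any mouse left out. Between layers, leaving out a mouse gave 1158 to 1825 genes and 4 to 7 members in WT, 1852 to 2266 and 7 to 8 in KO, and 3679 to 4203 and 9 to 12 in both. At an adjusted p under 0.1, 10 members passed in WT. With a filter at 10 CPM, 5 passed in KO and 7 in both. The whole horn against endometrium gave 1940 genes and 5 members at an adjusted p under 0.1 and 6 members with the block, and against myometrium 6 members with DESeq2. Each setting also moves the calls over all genes. Member counts given without a count of all genes are therefore descriptions and say nothing of the family against its background. With the block, Dkk2 (1.03, adjusted p = 0.02417), Sfrp4 and Wnt7b also passed in WT and Dkk3 in KO, Dkk2 and Rspo1 passed in both while Fzd10 and Wnt11 did not, and in the horn against myometrium Dkk3 (0.57, adjusted p = 0.03858) was gained and Fzd10 lost; beside these and the 4 horn calls given above, it changed no other call of a named member. Totals as low as 256298 counts limit members under a few CPM, and the causes of these changes were not tested.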
